A study of Mus musculus with 10 samples.

Results

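Collagen VI and the fibril-associated collagens were followed here through 7 genes, Col6a1, Col6a2, Col6a3, Col6a6, Col12a1, Col14a1 and Col16a1, read by their symbols out of the 53465 genes of a bulk RNA-seq count table. All 7 were present, and all 7 were among the 16426 genes with enough counts to be tested. The libraries came from pinna prominences, the budding outer ears, of mouse embryos at E14.5. Of 10 libraries, 5 were wild type (WT) and 5 were mEC1dup/dup, labelled as a knock-in, in which each allele of the germline carries an additional copy of mEC1, an enhancer of the transcription factor gene Hmx1. The line was made with CRISPR on a C57BL/6 J background and homozygotes came from crosses of heterozygotes, so the extra copies were in every cell of these embryos, and the whole prominence was homogenised with all of its cell types. The comparison asks what an increased dose of this enhancer goes with in the forming outer ear, and for these genes, whether their transcript levels differ between the genotypes.

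Collagens are proteins of the extracellular matrix built from chains wound into a triple helix. Collagen VI does not make thick fibrils: an alpha 1, an alpha 2 and a longer chain join into a heterotrimer, and these assemble into beaded microfilaments that surround cells in muscle, skin, cartilage and tendon and connect them with their matrix. Fibril-associated collagens have a triple helix interrupted by short flexible stretches, and they decorate the surface of fibrils made by collagens such as I and II. In embryonic connective tissue both families are known mainly as products of fibroblasts and their relatives in fascia, tendon and perichondrium.

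Each library held between 17461544 and 18462073 counts, and counts of Hmx1 were 376 to 526 in WT and 976 to 1356 in mEC1dup/dup (log2 fold change 1.31, edgeR's quasi-likelihood test, adjusted p = 0.000127), in the direction of the labels. The genotypes also differed in other respects. All 5 WT libraries had 1289 to 1517 counts of the Y-linked gene Ddx3y and few counts of Xist, the RNA of the inactive X chromosome, whereas Xist had 12812, 19040, 18165, 2096 and 0 counts and Ddx3y had 241, 10, 16, 1219 and 1333 counts in mEC1dup/dup replicates 1 to 5. Replicates 1 and 4 therefore held both kinds of transcript. Embryonic globins, which give way to adult globins as development proceeds, made up 18.44 to 23.29% of all globin counts in WT and 32.55 to 35.63% in mEC1dup/dup. That share does not overlap between the genotypes, so a genotype difference and one of embryonic stage cannot be told apart. The study's methods give 5 independent embryos for each genotype and siblings of separate litters as biological replicates, without saying which libraries share a litter. They do not account for both kinds of transcript in mEC1dup/dup replicates 1 and 4. Whether those libraries hold 1 embryo each was not tested, so n counts libraries here.

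Every member had a lower mean in mEC1dup/dup than in WT, and the fitted reductions lay between 20.4 and 30.6%. A gene is named called here when its Benjamini-Hochberg adjusted p in edgeR's quasi-likelihood test over all tested genes was at most 0.05 and its average level was at least 1 on the scale of log2 CPM, where CPM is a gene's counts scaled to a library of standard size. By that rule 3 of 7 members fell, Col12a1, Col14a1 and Col16a1, none rose, and all 4 collagen VI chains missed the threshold. Among all tested genes 1.81% were called lower and 0.834% were called higher. The median log2 fold change, mEC1dup/dup over WT, was -0.45 over the members and -0.00415 over all tested genes, of which 51.2% were negative. The libraries of the genotypes did not overlap for 2 of 7 members, Col12a1 and Col16a1, where 2.75% of all tested genes were lower without overlap. Collagen genes are long and these are well expressed, so the same was counted over the 3111 tested genes at least as long as the shortest member and at least as abundant as the lowest. Their median log2 fold change was 0.0104, and 1.74% of them were called lower. A fit with a block for replicate number called all 7 members lower, with 487 of all 16426 tested genes called lower. Whether the replicate numbers pair the libraries is unknown.

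**Figure D1:**
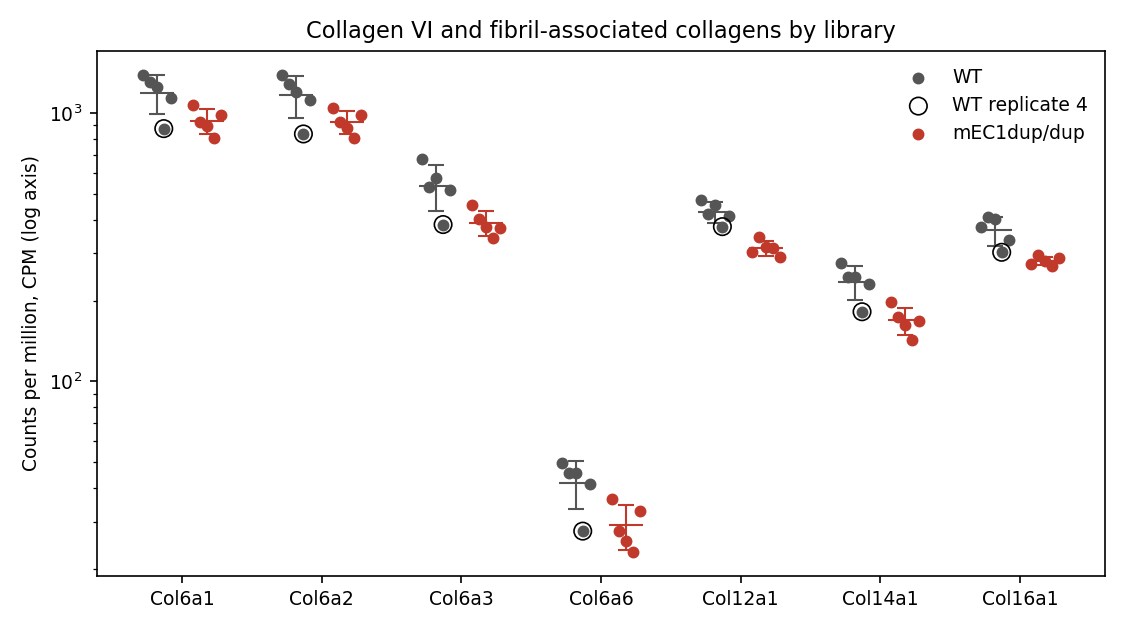
CPM of the 7 members in each of the 10 libraries on a log axis, with the mean as a horizontal bar and the SD as the error bar of 5 libraries per genotype; WT replicate 4 is circled. The mEC1dup/dup libraries sit below all WT libraries for Col12a1 and Col16a1, and the circled library falls among or near the mEC1dup/dup libraries for the other members.

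The fibril-associated collagens held the members that were called. Log2 fold changes of both families overlapped, at -0.48 to -0.38 for these and -0.53 to -0.33 for collagen VI, and a difference between the families was not tested. Col12a1 encodes the chain of collagen XII, a homotrimer of tendon, ligament, fascia and periosteum (ENSMUSG00000032332, GRCm39 chr9:79506268-79626135, minus strand). It was measured at 476.0, 422.2, 455.2, 377.3 and 411.9 CPM in WT replicates 1 to 5 and at 303.0, 345.9, 316.2, 314.5 and 291.8 CPM in mEC1dup/dup replicates 1 to 5. Every mEC1dup/dup library was below every WT library. The mean fell from 428.5 ± 38.4 to 314.3 ± 20.22 CPM (SD over n = 5 libraries each), a log2 fold change of -0.45 with an SE of 0.062 (95% interval -0.581 to -0.313, edgeR, adjusted p = 0.00393). Ordered by p, Col12a1 was number 26 of all tested genes.

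Col16a1 encodes the chain of collagen XVI, a minor component found near basement membranes and in dermis and cartilage (ENSMUSG00000040690, GRCm39 chr4:129941154-129993076, plus strand). Its WT libraries read 375.9, 409.3, 403.8, 302.7 and 337.8 CPM, and its mEC1dup/dup libraries read 274.9, 295.0, 280.1, 269.5 and 287.8 CPM. Again the genotypes did not overlap, although WT replicate 4 was close to the highest mEC1dup/dup library. The mean fell from 365.9 ± 45.27 to 281.5 ± 10.16 CPM (SD over n = 5 libraries each), with a log2 fold change of -0.38 (SE 0.0718, 95% interval -0.533 to -0.223, edgeR, adjusted p = 0.0153). The call was lost without mEC1dup/dup replicate 3 (adjusted p = 0.0541).

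Col14a1 encodes the chain of collagen XIV, which binds fibril surfaces in skin, tendon and around muscle and limits the lateral growth of fibrils (ENSMUSG00000022371, GRCm39 chr15:55171140-55384199, plus strand). WT libraries gave 275.3, 245.1, 244.4, 181.7 and 229.7 CPM and mEC1dup/dup libraries gave 197.5, 173.2, 161.5, 142.8 and 167.9 CPM. Only mEC1dup/dup replicate 1 exceeded the lowest WT library, WT replicate 4. The mean fell from 235.2 ± 34.19 to 168.6 ± 19.83 CPM (SD over n = 5 libraries each), with a log2 fold change of -0.48 (SE 0.1, 95% interval -0.698 to -0.264, edgeR, adjusted p = 0.0238). This call was the least steady of the called members, since it held in 4 of 10 fits without 1 of the libraries, and in all 10 the log2 fold change was between -0.564 and -0.419.

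The chains of collagen VI followed, with none called in the fit by genotype alone. With a block for replicate number all 4 were called lower, but whether the numbers pair the libraries is unknown. Col6a1 (ENSMUSG00000001119, GRCm39 chr10:76543440-76562283, minus strand) encodes the alpha 1 chain, needed by every collagen VI molecule. It was present at 1391, 1308, 1248, 875.2 and 1136 CPM in WT and at 1071, 928.9, 894.1, 807.7 and 986.8 CPM in mEC1dup/dup. In WT, 4 of 5 libraries were above all mEC1dup/dup libraries, and replicate 4 was below 4 of the mEC1dup/dup libraries. The means were 1192 ± 199.8 and 937.6 ± 98.67 CPM (SD over n = 5 libraries each), with a log2 fold change of -0.35 (SE 0.108, 95% interval -0.578 to -0.114, edgeR, adjusted p = 0.115).

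Col6a2 (ENSMUSG00000020241, GRCm39 chr10:76429660-76459549, minus strand) encodes the alpha 2 chain and lies 83.89 kb from Col6a1 on the same strand. Its levels were 1386, 1288, 1201, 836.0 and 1116 CPM in WT and 1043, 928.3, 878.4, 808.4 and 982.5 CPM in mEC1dup/dup, with the same low WT library. Means of 1165 ± 209.7 and 928.1 ± 90.77 CPM (SD over n = 5 libraries each) corresponded to a log2 fold change of -0.33 (SE 0.111, 95% interval -0.569 to -0.0876, edgeR, adjusted p = 0.151).

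Col6a3 (ENSMUSG00000048126, GRCm39 chr1:90693645-90771780, minus strand) encodes the alpha 3 chain, the usual long chain. WT libraries held 673.6, 529.3, 574.6, 384.1 and 518.8 CPM, and mEC1dup/dup libraries held 454.0, 402.8, 376.9, 343.6 and 372.7 CPM. Of the mEC1dup/dup libraries, 3 were below the lowest WT library. The means were 536.1 ± 104.7 and 390.0 ± 41.46 CPM (SD over n = 5 libraries each), and the log2 fold change of -0.46 (SE 0.118, 95% interval -0.714 to -0.204, edgeR) had an adjusted p of 0.0596, just outside the threshold.

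Col6a6 (ENSMUSG00000043719, GRCm39 chr9:105564724-105705561, minus strand) encodes the alpha 6 chain, a long chain that can take the place of alpha 3. With 49.69, 45.56, 45.4, 27.64 and 41.32 CPM in WT and 36.52, 27.67, 25.31, 23.14 and 32.92 CPM in mEC1dup/dup, it was by far the lowest member. Here too, WT replicate 4 was inside the mEC1dup/dup range. The means of 41.92 ± 8.514 and 29.11 ± 5.513 CPM (SD over n = 5 libraries each) gave the lowest log2 fold change of the members, -0.53, with the largest SE, 0.152 (95% interval -0.855 to -0.198, edgeR, adjusted p = 0.0874).

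**Figure D2:**
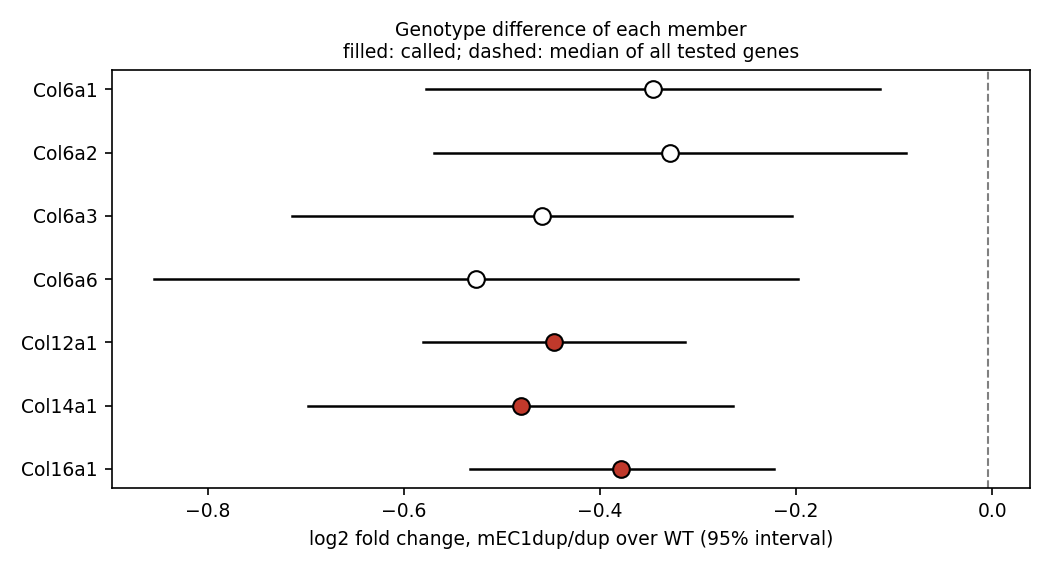
The log2 fold change of each member, mEC1dup/dup over WT, with its 95% interval; filled points were called and the dashed line is the median of all tested genes, -0.00415. All 7 intervals lie below the dashed line, and those of Col12a1 and Col16a1 are the narrowest.

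The width of these intervals followed the spread between libraries of 1 genotype. The biological coefficient of variation in the edgeR fit was 0.122 for Col6a1, 0.126 for Col6a2, 0.133 for Col6a3, 0.168 for Col6a6, 0.113 for Col14a1, 0.0836 for Col16a1 and 0.0736 for Col12a1. Over all tested genes its median was 0.0935. Much of the spread in WT came from replicate 4, in which all 7 members were below their WT mean and the median deviation was -0.427 on the log2 CPM scale. In WT replicate 1 all 7 were above it, by a median of 0.241. Without WT replicate 4 all 7 members were called, with log2 fold changes of -0.442 for Col6a1 (edgeR, adjusted p = 0.00562), -0.43 for Col6a2 (adjusted p = 0.00591), -0.561 for Col6a3 (adjusted p = 0.00327) and -0.648 for Col6a6 (adjusted p = 0.00683). Over all genes that fit called 476 of 16593 lower, against 297 of 16426 with every library. WT replicate 4 is singled out here for its low values of these same members, so its removal is no independent test of them. Among the 10 fits without 1 of the libraries, Col6a1 and Col6a2 were called in 1, and Col6a3 and Col6a6 in 2. Leaving out mEC1dup/dup replicate 1 brought the count of called members to 5, with 342 of all 16614 tested genes called lower, and leaving out mEC1dup/dup replicate 3 brought it to 1, with 120 of 16593.

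**Figure D3:**
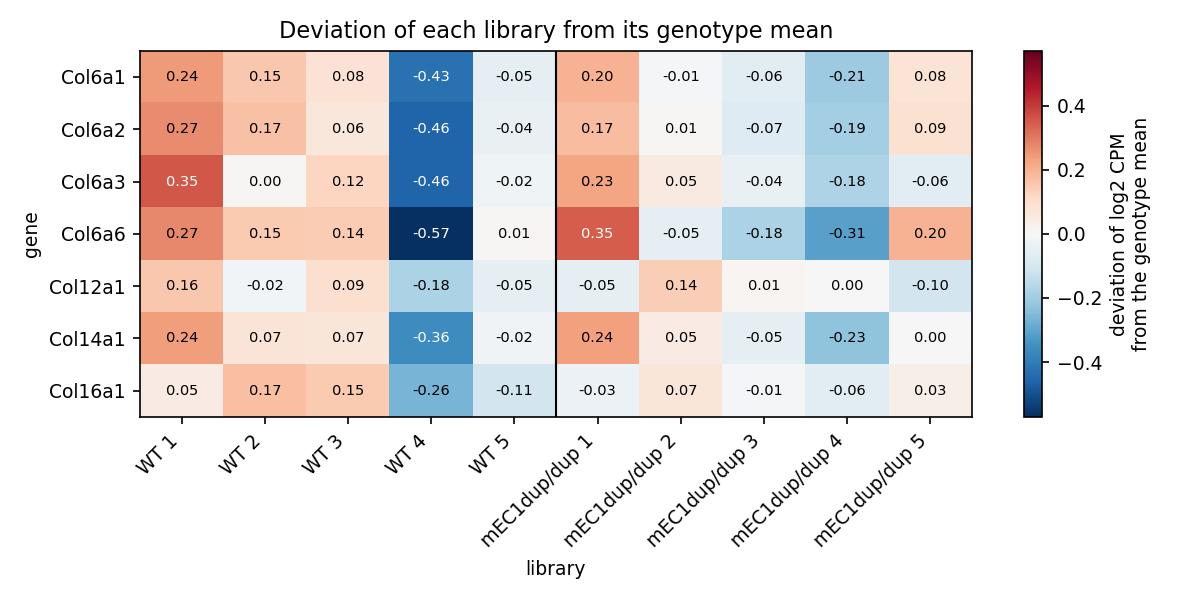
Deviation of log2 CPM from the mean of its genotype for each member (rows) in each library (columns), with WT to the left of the vertical line; red is above and blue below the mean. WT replicate 4 is below the mean for all 7 members and WT replicate 1 is above it for all 7, whereas Col12a1 and Col16a1 vary less than the collagen VI chains.

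Among libraries of 1 genotype, 5 of the 7 members varied together. For each of the 21 pairs the deviations of log2 CPM from the genotype mean were correlated over the 10 libraries, with exact permutation within genotype and Benjamini-Hochberg adjustment over 21. Pearson's r lay between 0.391 and 0.996, with a median of 0.774. The 10 pairs that passed by r, and the 10 that passed by Spearman's rho, were those among Col6a1, Col6a2, Col6a3, Col6a6 and Col14a1. No pair that included Col12a1 or Col16a1 passed. The tightest pair was Col6a1 with Col6a2, the chains that occur together in each collagen VI molecule (r = 0.996, raw exact permutation p = 6.94e-05, adjusted p = 0.000486; rho = 0.988, adjusted p = 0.000486). It kept an r of 0.988 without the 2 libraries farthest from the median. Col14a1 varied with the collagen VI chains nearly as closely, with r of 0.969 with Col6a1 (raw exact permutation p = 0.000347, adjusted p = 0.00104; rho = 0.988, adjusted p = 0.00117; r without the 2 farthest libraries 0.898). It did not do so with its fellow fibril-associated gene Col12a1, where r was 0.569 (raw exact permutation p = 0.122, adjusted p = 0.151; rho = 0.479, adjusted p = 0.25) and -0.0129 without the 2 farthest libraries. The libraries share depth and tissue make-up within each point, and the difference between these correlations was not tested. How many pairs among other genes would pass was not counted, and some genes outside the members were about as close, as given next.

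The genes most like each member were sought among all tested genes of average log2 CPM of at least 1 by the same r over the 10 libraries. Beside each other, Col6a1 and Col6a2 were most like Crybg3 (r = 0.987 and 0.991). Col6a3 was most like Fbn1, the gene of fibrillin-1 of microfibrils (r = 0.982), and Tbc1d22b (0.969). For Col6a6 these were Col6a1 (0.973) and Gpc4, a cell-surface heparan sulphate proteoglycan gene (0.972). Col12a1 was closest to Agrn, which encodes the basement membrane proteoglycan agrin (0.982), and Reep4 (0.97). Col14a1 was closest to Eprs1, a transfer RNA synthetase gene (0.979), and Lamb1, a laminin chain gene (0.97), and Col16a1 to Mmp2, the gene of a matrix metalloproteinase (0.974), and Safb (0.971). None of these genes outside the members was called between the genotypes.

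As the Col6a1 and Col6a2 transcripts varied so closely, the 250 bases before their transcription starts are shown, from RefSeq on GRCm38.p6. Capitals mark the GC box GGGCGG, read on either strand; of the 2 starts listed for Col6a2, the one nearer the end of the gene is given (chr10:76726045-76726294 and chr10:76623405-76623654, both minus strand).
Col6a1: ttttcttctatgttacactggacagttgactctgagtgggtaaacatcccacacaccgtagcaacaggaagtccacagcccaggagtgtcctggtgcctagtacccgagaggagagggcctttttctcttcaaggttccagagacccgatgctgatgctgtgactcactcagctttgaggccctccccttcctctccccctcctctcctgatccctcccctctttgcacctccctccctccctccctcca
Col6a2: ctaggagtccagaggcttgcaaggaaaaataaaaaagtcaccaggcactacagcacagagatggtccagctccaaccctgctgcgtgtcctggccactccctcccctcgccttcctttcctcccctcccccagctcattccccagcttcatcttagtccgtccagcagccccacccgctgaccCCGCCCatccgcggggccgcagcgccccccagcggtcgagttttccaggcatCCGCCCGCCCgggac
RefSeq promoter entries matched 5 of the 7 members with 6 windows; Col12a1 and Col14a1 have no entry in the table used. The Col6a1 window is 56.0% G and C and the Col6a2 window 64.4%, against a median of 52.4% over 32851 windows. The core CAAGTG that homeodomain factors of the HMX family are known to bind was searched on both strands. It occurred in none of the 6 member windows and in 11.6% of all windows. TATAAA was likewise in none of them, with 12.4% of all windows holding it. CCAAT was in 1 of 6, that of Col16a1, where the share of all windows was 33.8%. GGGCGG was in 4 of 6, those of Col6a2, Col6a6 and Col16a1, where the share of all windows was 32.7%. It matched 3 times in the Col6a2 window shown, with 2 matches that overlap, and not in that of Col6a1. These are matches of letters in 1 short window and say nothing of binding.

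The proportions between chains were compared as ratios of counts per kilobase of the canonical transcript, which need no scaling between libraries. The level of Col6a2 was 0.67 of that of Col6a1 in WT and 0.68 in mEC1dup/dup, a difference of 0.0211 in the log2 ratio (two-sided exact permutation test, p = 0.175, adjusted over 4 ratios 0.35). For Col6a3 to Col6a1 the ratio was 0.202 in WT and 0.187 in mEC1dup/dup, a log2 difference of -0.108. All 5 mEC1dup/dup libraries were below the WT mean of that ratio, and the exact permutation p was 0.0873 (adjusted 0.349). Without WT replicate 2, whose log2 ratio of -2.457 was the lowest in WT, the difference was -0.145, and its exact permutation p of 0.00794 was unadjusted. When any other library was left out instead, the unadjusted exact permutation p was 0.0873 to 0.175.

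Col6a6 to Col6a3, the alternative long chains, stood at 0.0767 in WT and 0.0728 in mEC1dup/dup (log2 difference -0.076, exact permutation p = 0.421, adjusted 0.561). Col14a1 and Col12a1 were nearly level with each other at a ratio of 1.0 in WT and 0.981 in mEC1dup/dup (log2 difference -0.0306, exact permutation p = 0.778, adjusted 0.778). With 5 libraries against 5 the smallest p this test can give is 0.00794. No ratio passed, which does not show that the proportions are the same.

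Levels per kilobase of the canonical transcript placed Col6a1 first, at 290.6 ± 48.73 CPM per kb in WT and 228.7 ± 24.06 in mEC1dup/dup (SD over n = 5 libraries each). Col6a2 came next at 195.2 ± 35.12 and 155.5 ± 15.2 CPM per kb, and the ranges of these neighbours overlapped in WT and not in mEC1dup/dup. Col16a1 (64.35 ± 7.962 and 49.5 ± 1.786) and Col6a3 (58.87 ± 11.49 and 42.83 ± 4.553) followed, with overlapping ranges in both genotypes, and in WT the range of Col6a3 also overlapped that of Col14a1. Col14a1 (36.45 ± 5.297 and 26.12 ± 3.072) and Col12a1 (36.17 ± 3.242 and 26.53 ± 1.707) also overlapped in both, and neither can be placed above the other: their order switched between the genotypes on this scale, while per kilobase of all annotated exons Col14a1 was higher in both (33.53 against 28.01 CPM per kb in WT, 24.03 against 20.54 in mEC1dup/dup). Col6a6 was last at 4.53 ± 0.92 and 3.145 ± 0.5957 CPM per kb, below every library of the others. Together the 7 genes took 0.302 to 0.457% of all counts in WT and 0.272 to 0.339% in mEC1dup/dup.

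The remaining genes of these families and of their surroundings were counted from lists. Of the other collagen VI and fibril-associated genes, 1 of 8 tested was called lower and none higher, with a median log2 fold change of -0.188. That gene was Col22a1, a fibril-associated collagen of muscle-tendon junctions (log2 fold change -0.60, SE 0.107, edgeR, adjusted p = 0.0124). Col9a1, Col9a2 and Col9a3, which encode the chains of the cartilage collagen IX, had log2 fold changes of -0.23, -0.18 and -0.20 with SEs of 0.209 to 0.219, so that none was called. Of the remaining collagen VI genes, Col6a4 stood at -0.14 (SE 0.313, adjusted p = 0.871) and Col6a5 at 0.83 (SE 0.307, adjusted p = 0.196), both at average levels below 0 on the log2 CPM scale. Col21a1 was not analysed here.

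Receptors of collagen VI and of collagens included 1 called gene of 10, Itga10, an integrin of chondrocytes (log2 fold change -0.68, SE 0.157, edgeR, adjusted p = 0.0377), at a list median of -0.0929. Cspg4 and Antxr1, both genes of known binding partners of collagen VI, had log2 fold changes of -0.25 (SE 0.0911, adjusted p = 0.193) and -0.10 (SE 0.0566, adjusted p = 0.45). Of 13 matrix partners 4 were called lower and none higher, all 13 values were negative and their median was -0.333. Of the called genes the largest by size was Comp, which encodes a collagen-binding protein of cartilage and tendon (-1.24, SE 0.19, edgeR, adjusted p = 0.0064), followed by Fmod, a proteoglycan gene of tendon fibrils (-0.46, SE 0.0772, adjusted p = 0.0101), Matn2, which encodes a filament-forming adaptor of the matrix (-0.33, SE 0.0758, adjusted p = 0.0363) and Bgn, the biglycan gene, whose product binds collagen VI (-0.31, SE 0.073, adjusted p = 0.0413).

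All 11 fibrillar collagen genes had negative values, with a median log2 fold change of -0.278, and 1 was called, Col5a3 (-0.66, SE 0.113, edgeR, adjusted p = 0.0107). Col1a1 and Col1a2, which encode the main fibril collagen, were at -0.35 (SE 0.129, adjusted p = 0.188) and -0.28 (SE 0.102, adjusted p = 0.185). Of 14 genes of collagen biosynthesis 3 were called lower and none higher, at a list median of -0.123. They were P4ha1 and P4ha2, which encode prolyl 4-hydroxylase subunits (both -0.31, adjusted p = 0.00493 and 0.0224), and Pcolce, which encodes an enhancer of procollagen processing (-0.27, adjusted p = 0.0444). The median of the 7 members was thus lower than that of each of these lists, a difference that was not tested. Members and lists were chosen with earlier results of these data known, so their order is open to that choice. Of the cell type marker lists given below, those of skeletal muscle (-0.503), epithelium (-0.644) and mast cells (-0.848) had lower medians than the members, and the rest had higher ones.

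**Figure D4:**
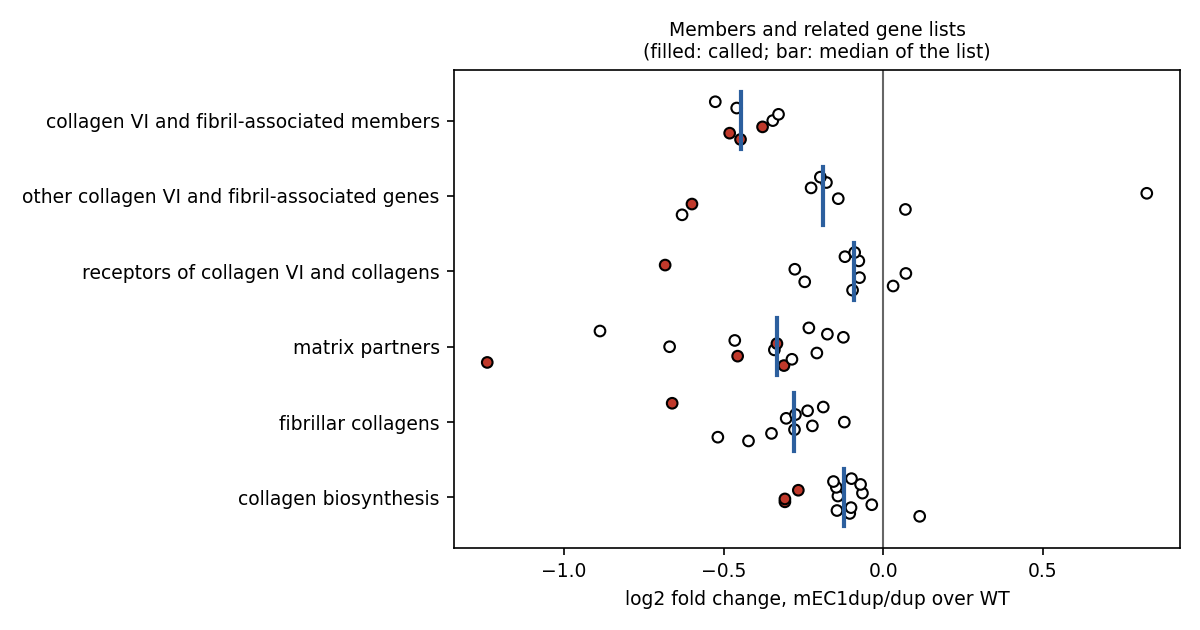
The log2 fold change, mEC1dup/dup over WT, of each tested gene of the 7 members and of the 5 lists of related genes; filled points were called, and the blue bar is the median of each list. The medians are -0.447 for the members, -0.333 for matrix partners, -0.278 for fibrillar collagens, -0.188 for the other collagen VI and fibril-associated genes, -0.123 for biosynthesis and -0.0929 for receptors.

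In whole tissue, fewer cells of a type and less RNA per cell cannot be told apart, so the levels of marker genes are given beside these results. Of the 6 fibroblast markers 2 were called lower, Lum and Dpt, and their summed level was 1555 to 1865 CPM in WT and 1433 to 1715 in mEC1dup/dup. Pdgfra and Pdgfrb, receptor genes of fibroblasts at large, had log2 fold changes of 0.08 (edgeR, adjusted p = 0.67) and 0.00337 (adjusted p = 0.99). Of the 5 perimysial and tendon markers 3 were called lower, C1qtnf3, Tnmd and Ogn, and their sum was 381.3 to 473.7 CPM in WT and 328 to 354.6 in mEC1dup/dup, without overlap. In the same list Scx, a transcription factor gene of tendon, was at a log2 fold change of 0.24 (SE 0.0676, edgeR, adjusted p = 0.0758). Skeletal muscle markers, 2 of 6 called lower, summed to 908.4 to 1413 CPM in WT and 546.2 to 857.8 in mEC1dup/dup, and epithelial markers, 3 of 5 called lower, to 711.2 to 1274 and 564.6 to 732.9 CPM. Acta1 made up much of the muscle sum, at means of 579 CPM in WT and 314 in mEC1dup/dup. Log2 fold changes were negative for 5 of 6 muscle markers, with Myog at 0.12 (edgeR, adjusted p = 0.745). They were negative for 4 of 5 epithelial markers, with Epcam at 0.04 (edgeR, adjusted p = 0.867). None of the 6 chondrocyte markers was called, at sums of 4126 to 6977 CPM in WT and 1820 to 5490 CPM in mEC1dup/dup. Pericyte and smooth muscle markers, 1 of 5 called lower, summed to 90.57 to 109.3 CPM in WT and 68.53 to 86.53 in mEC1dup/dup, and mast cell markers, 1 of 3 called lower, to 51.29 to 76.39 and 40.68 to 48.57 CPM. No endothelial, Schwann and glia, melanocyte, macrophage or erythroid marker was called, and no marker of any of these lists was at 0 in all libraries. Their part in the members' lower values was not tested by these sums. With the mean level of the muscle markers as a covariate, 21 of all tested genes were called lower and 17 higher. In that fit Col12a1 was called (log2 fold change -0.58, edgeR, adjusted p = 0.0356), and Col14a1 (-0.43, adjusted p = 0.372) and Col16a1 (-0.50, adjusted p = 0.0991) were not. The covariate was 6.587 to 7.237 in WT and 5.647 to 6.479 in mEC1dup/dup on the log2 CPM scale. As these ranges do not overlap, the fit cannot separate muscle content from genotype.

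The embryonic share of globin counts separated the genotypes in all libraries, whereas Xist and Ddx3y differed from WT in only some mEC1dup/dup libraries, and replicate 5 was like WT in both. With Xist as a covariate, where 1 of all tested genes was called lower and 2 higher, all 7 values stayed negative and no member was called: Col12a1 was at -0.55 (edgeR, adjusted p = 0.167), Col14a1 at -0.54 (adjusted p = 0.363) and Col16a1 at -0.38 (adjusted p = 0.369). Among libraries with over 1000 Ddx3y counts, mEC1dup/dup replicates 4 and 5 against all WT, the same genes stood at -0.50 (adjusted p = 0.118), -0.60 (adjusted p = 0.179) and -0.39 (adjusted p = 0.238), and over all genes 0 were called lower and 1 higher, with 1853 at an unadjusted p below 0.05. Without mEC1dup/dup replicates 1 and 4, which held both Xist and Y-linked transcripts, only Col12a1 of the members was called (-0.43, adjusted p = 0.0372), with 105 of all tested genes called lower. With the embryonic share of globin counts as a covariate, which leaves little independent variation in genotype, 6 of the 7 values turned positive, from 0.163 for Col16a1 to 0.754 for Col6a6, with Col12a1 at -0.0219, and no member was called (adjusted p from 0.898 to 0.992). Over all tested genes, 2658 had an unadjusted p below 0.05 in the fit without covariates, and 795 in the fit with the globin share.

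**Figure D5:**
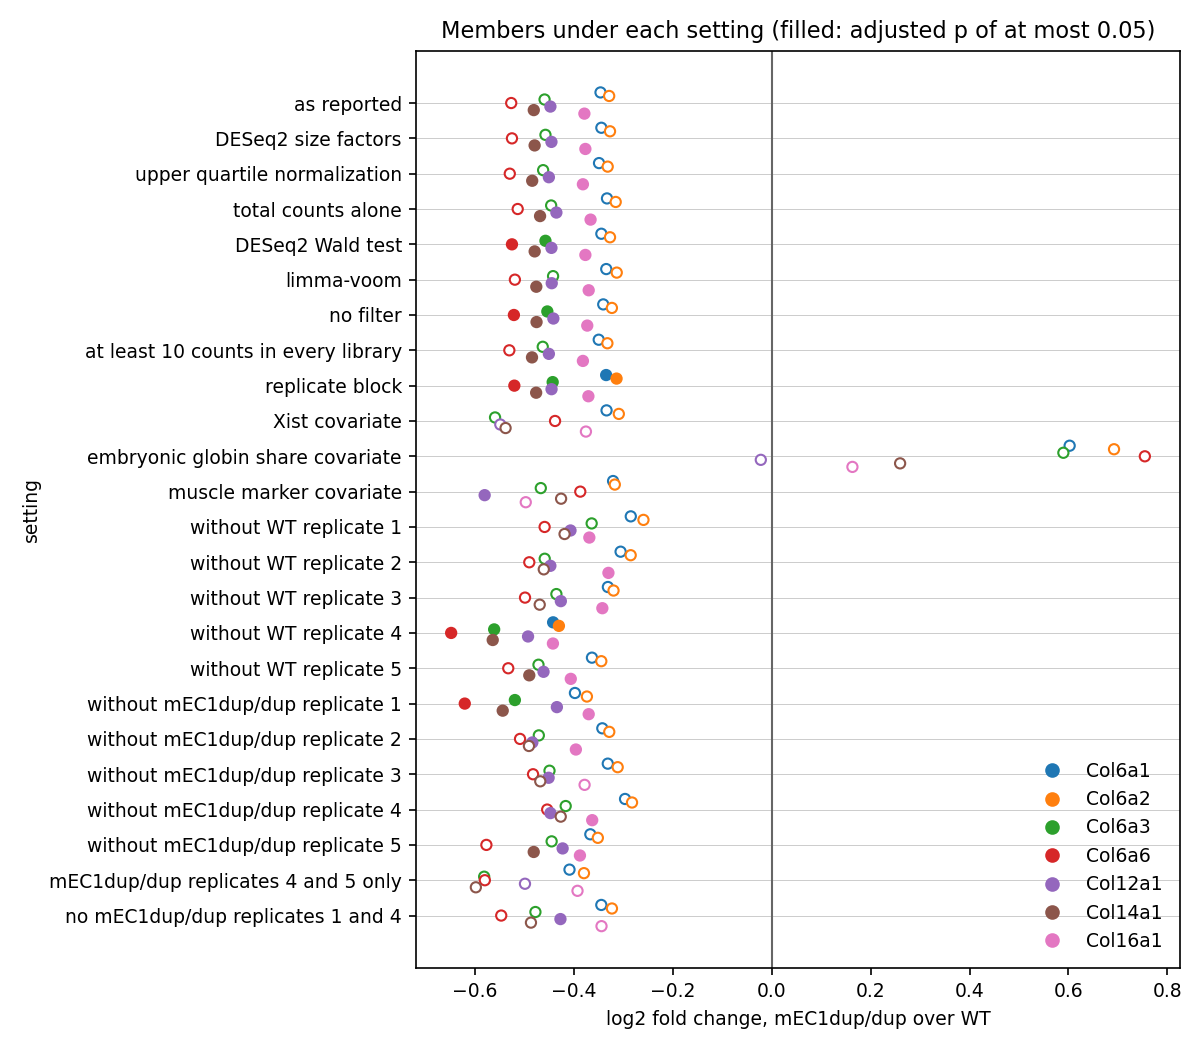
The log2 fold change of each member, mEC1dup/dup over WT, as reported and under each other setting (rows), coloured by gene and filled where the adjusted p was at most 0.05. Values stay below 0 in every row but that of the embryonic globin share covariate, and all 7 points are filled with the replicate block and without WT replicate 4.

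The counting of reads could touch some members. The kits named for these libraries do not mark strand, so reads of a gene and of an overlapping gene on the other strand cannot be told apart. Such overlaps covered 5.856% of the exonic bases of Col12a1, 3.834% of Col14a1, 3.583% of Col16a1 and 2.031% of Col6a6, and none of Col6a1, Col6a2 and Col6a3.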

How the data were processed

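Pinna prominences of E14.5 mouse embryos were profiled by poly-A RNA-seq in 5 WT and 5 mEC1dup/dup libraries. The authors deposited 1 table of raw gene counts, per the labels made with fastp, STAR and featureCounts on GRCm39; the annotation release and strand use are not given in the sources used here, and the labels and methods name different library kits. Libraries were grouped by their labels. Genes passing filterByExpr were scaled by TMM and fitted by genotype with edgeR's quasi-likelihood test (edgeR 4.0.16, R 4.3.3), in a routine tested on simulated data. There it called 58 of 100 genes with a log2 change of 0.5 and 90 of 100 with a change of 1, with 15 false calls. Changes of the members' size can therefore be missed. A gene was called at a p, adjusted by Benjamini-Hochberg over all tested genes, of 0.05 or less where its mean log2 CPM reached 1. Log2 CPM values used a prior count of 2, and ratios added 0.5 to each count. P-values measure the spread between these libraries. Positions and lengths came from GENCODE on GRCm39. Related genes were named when called, the 3 largest per list, and Bgn, Cspg4, Antxr1, Col1a1, Col1a2, the collagen IX genes, Col6a4 and Col6a5 were named after their values were seen; each member's 2 most alike genes were also named. The members and lists were chosen with earlier results of these data known. Alternatives were other scalings and filters, DESeq2 1.42.0, limma-voom (limma 3.58.1), covariates, a replicate block and leaving out libraries.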

Additional observations from a re-analysis of the deposited data

Results flagged for a closer look

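Of 22 groups of 5 libraries tested for a library far from the rest (7 members and 4 ratios in each genotype), 1 stood out, and chance alone picks about 1 in 20 such groups. It was the log2 ratio of Col6a3 to Col6a1 per kilobase in mEC1dup/dup replicate 5, at -2.556, where the other 4 mEC1dup/dup libraries lay between -2.397 and -2.357. The gap to the nearest of them was 0.796 of the range of the group. Without that library the genotype difference of this ratio was -0.0727 (exact permutation p = 0.175), against -0.108 with it.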

How the results depend on the processing

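The count of 3 members called lower was unchanged with DESeq2's size factors, upper quartile scaling, total counts, limma-voom, a minimum of 10 counts in every library and no threshold on level. It was 5 with DESeq2's Wald test, 5 without a filter, 7 with the replicate block, 1 with the muscle covariate, 0 with the Xist covariate, 0 with the globin covariate and 1 at an adjusted p of at most 0.01. In comparisons chosen after seeing the data it was 0 with mEC1dup/dup replicates 4 and 5 only and 1 without replicates 1 and 4. Leaving out 1 library gave 1 (without mEC1dup/dup replicate 3) to 7 (without WT replicate 4). No setting called a member higher. Genes called lower numbered 297 and higher 137 as reported, 510 and 321 with DESeq2's Wald test, 487 and 200 with the replicate block, 1 and 2 with Xist, 0 and 0 with globin (795 genes at an unadjusted p below 0.05), 21 and 17 with the muscle covariate, 0 and 1 with mEC1dup/dup replicates 4 and 5 only, 105 and 42 without replicates 1 and 4, and 120 to 476 and 34 to 179 leaving out 1 library. Deviations of same-numbered libraries correlated at -0.0558 to 0.345, and 2 of 5 WT libraries correlated best with the mEC1dup/dup library of their own number; replicates came from siblings of separate litters, but no source ties a number to a litter, so whether the numbers pair the libraries is unknown. With the replicate block the collagen VI chains were at -0.335 (Col6a1, edgeR adjusted p = 0.00909), -0.314 (Col6a2, 0.0172), -0.443 (Col6a3, 0.00276) and -0.52 (Col6a6, 0.00841). With the globin covariate values turned to 0.602 (Col6a1), 0.692 (Col6a2), 0.59 (Col6a3), 0.754 (Col6a6), 0.26 (Col14a1) and 0.163 (Col16a1); the cause was not tested. Leaving out 1 library, the difference in the Col6a3 to Col6a1 log2 ratio ranged from -0.145 to -0.0727, and that of Col14a1 to Col12a1 from -0.102 to 0.028, positive without mEC1dup/dup replicate 4. The covariates differ between the genotypes in these 10 libraries, without overlap for the globin and muscle values, which limits what they can separate.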
